A study of Mus musculus with 2 samples.

Results

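Cck and Sct, the genes of the gut hormones cholecystokinin and secretin, were followed in Tomato-positive cells sorted from mouse small intestine. Both were found by their symbols in the deposited gene lists, 1 row each, so that they are 2 of the 32285 genes measured. Single-cell RNA-Seq had been done on 2 libraries, 1 per group. The WT library was made from Neurog3Cre; Rosa26tdtomato mice. The library labelled NFKO was made from mice of the strain Neurog3Cre-FoxO1 f/f; Rosa26tdtomato, in which the same Cre should remove FoxO1. In both groups the Cre comes on with Neurog3, which endocrine progenitors express, so the red reporter stays on in all descendants of cells that once expressed Neurog3. All mice were 4 to 6 weeks old, and each library pooled whole small intestines of 4 to 5 animals with the attached pancreas removed, so duodenum, jejunum and ileum cannot be told apart by label. With 1 pooled library per group no value has a replicate error, no test between groups is possible and no p-value is given.

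Cholecystokinin is classically assigned to I cells of the upper small intestine, which release it after fat and protein to contract the gallbladder, stimulate pancreatic enzyme secretion and curb feeding. Secretin is assigned to S cells, which release it when acid enters the duodenum and so drive bicarbonate secretion by the pancreatic ducts. Both hormones are cut from longer precursors inside secretory granules and amidated at their end. Enteroendocrine cells commonly make several hormones at once, and Sct is known as a gene that many endocrine types switch on as they move from crypt to villus, where BMP signalling is strong.

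Cck (ENSMUSG00000032532) codes for protein and lies on the minus strand of chromosome 9, between 121489824 and 121495694 in GRCm38. Sct (ENSMUSG00000038580) is much shorter, also codes for protein and lies on the minus strand of chromosome 7, between 141278330 and 141279133. The 250 bases upstream of each start are shown because factors of the Neurog3 and Neurod1 type bind E-boxes, with the letters CANNTG, and because both genes were read out in cells chosen for a Neurog3 history. The sequences were taken from RefSeq on GRCm38.p6 and run 5′ to 3′ on the strand of the gene. Capitals mark every match to CANNTG.
Cck promoter, chr9:121495695-121495944: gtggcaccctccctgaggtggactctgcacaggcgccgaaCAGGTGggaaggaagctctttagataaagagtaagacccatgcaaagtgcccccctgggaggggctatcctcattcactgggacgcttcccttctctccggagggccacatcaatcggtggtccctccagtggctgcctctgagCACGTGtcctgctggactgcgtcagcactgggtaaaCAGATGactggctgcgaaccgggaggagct
Sct promoter, chr7:141279134-141279383: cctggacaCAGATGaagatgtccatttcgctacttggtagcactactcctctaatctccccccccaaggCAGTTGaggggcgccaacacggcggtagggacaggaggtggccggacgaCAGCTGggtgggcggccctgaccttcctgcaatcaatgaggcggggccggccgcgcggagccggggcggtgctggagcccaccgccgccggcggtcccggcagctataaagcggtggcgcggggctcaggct

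Each window held 3 matches to CANNTG. In Cck they began 210, 66 and 30 bases upstream of the start, and in Sct 242, 181 and 132 bases upstream. Such matches were common, since 66.2% of 32851 mouse promoter windows of the same length held at least 1. The form CAGATG, read on both strands like the others and contained in CANNTG, occurred 1 time in each window, against 14.4% of all windows. The windows otherwise differed: TATAAA was found in Sct, 28 bases upstream, and not in Cck (12.4% of windows), GGGCGG was found 2 times in Sct and not in Cck (32.7% of windows), and TGACG was found 1 time in Cck and not in Sct (17.8% of windows). The GC content was 60.0% in Cck and 68.0% in Sct, above that of 72.1% and 87.8% of all windows. These are matches of letters and no binding was measured.

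The targeted gene was looked at first. Over all kept cells Foxo1 was at 11.5 CPM in WT (UMIs per 1000000 UMIs, interval 10.8 to 12.3) and at 12.4 CPM in the NFKO-labelled library (11.7 to 13.1), and in enteroendocrine-like cells the ratio was 0.830 (0.724 to 0.953). Foxo3 and Foxo4 had ratios of 0.793 and 0.804 in the enteroendocrine-like cells, so a ratio of this size was not particular to Foxo1. Over all cells the transcript was not lower, so that its level here does not bear out the genotype label. The paper itself reports a significant reduction of FoxO1, and none of FoxO3 and FoxO4, in Tomato-positive cells that were sorted from NFKO animals. The 3′ UMIs need not cover the floxed part. The filters kept 3003 cells from WT and 5292 from the other library, with medians of 16883 and 17035 UMIs, and 4 barcode sequences occurred in both libraries. The libraries differed in more than genotype: of the kept cells 2424 in WT and 357 in the NFKO-labelled library were typed as male from Y-linked genes and Xist, and 6 and 4357 as female. Of 6 stress-response genes, 5 were at least 1.5-fold lower in the enteroendocrine-like cells of the NFKO-labelled library, with Hspa1a at 395 and 39.5 CPM. For sex, values within male-typed cells are given below, and the part of stress was not tested. All intervals are 95% intervals and cover counting error only.

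Clusters were formed without the 15 hormone genes, and 9 of 23 were enteroendocrine-like by Chga, Chgb, Neurod1 and other shared endocrine genes. They held 1035 cells from WT and 1920 from the NFKO-labelled library. These cells contained 98.5% of all Cck UMIs in WT and 97.1% of those in the NFKO-labelled library, and 91.3% and 93.2% of all Sct UMIs. Summed over enteroendocrine-like cells, Cck stood at 14020 CPM in WT and 18063 CPM in the NFKO-labelled library. Sct stood at 13249 CPM and 28246 CPM. UMIs count 3′ ends of transcripts, so that the values do not scale with gene length. Cck was the gene with the rank 6 by UMIs in WT and 3 in the NFKO-labelled library, and Sct had the ranks 7 and 2. Both hormones thus belonged to the most abundant transcripts of these cells.

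The single cells differed widely behind these sums. The median enteroendocrine-like cell held Cck at 488 CPM in WT and 531 CPM in the NFKO-labelled library, while the cell at the 90th percentile held 37086 and 46566 CPM. In the cell with most Cck the gene took 15.5% of the WT cell's UMIs, and 26.9% in the NFKO-labelled library. Cck was therefore concentrated in few cells: 55 WT cells (5.31%) and 77 cells of the NFKO-labelled library (4.01%) held 50% of its UMIs. Cells with no Sct UMI were fewer than those with no Cck UMI, 3.57% against 27.8% in WT. In the NFKO-labelled library they were 0.625% against 10.7%. These shares do not show how widely Sct was expressed, since cells outside the endocrine clusters held Sct UMIs too and depths differed. At least 1 Sct UMI was held by 96.4% and 97.1% of Paneth-like cells, at median depths of 49545 and 37322 UMIs. The shares were lowest in enterocyte-like cells, with 42.9% and 88.0% at 4105 and 5812 UMIs. The median enteroendocrine-like cell held Sct at 3777 CPM in WT and 7131 CPM in the NFKO-labelled library, and the 90th percentile lay at 31025 and 86751 CPM. At its top, 50 WT cells (4.83%) held 50% of the UMIs, about as few as for Cck, while in the other library it took 141 cells (7.34%), more than for Cck.

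The endocrine clusters are named here by the highest-placed of 8 other hormone genes or Neurog3 among their 10 leading genes, and the one with none of these by its first gene, Pzp. Since neither Cck nor Sct took part in the clustering, their levels by cluster are a readout, though genes that vary with them did take part. Cck was high in 3 clusters. In WT it reached 56268 CPM (55580 to 56963) in the Pyy-led cluster, 50638 CPM (50111 to 51170) in the Pzp-led cluster and 34613 CPM (34365 to 34862) in the Gcg-led cluster. Among the leading genes of the Pzp-led cluster were Onecut3 and Cck itself, its most abundant hormone in both libraries. In the NFKO-labelled library the Pzp-led cluster came first with 106419 CPM, before the Pyy-led with 54983 CPM and the Gcg-led with 32576 CPM. The Gip-led cluster followed with 7534 CPM in WT and 10603 CPM in the other library, and the Nts-led cluster with 3018 and 9251 CPM. The remaining 4 clusters were below 1000 CPM in both libraries. In WT these were the Tac1-led at 998 CPM, the Sst-led at 375 CPM, the Neurog3-led at 315 CPM and the Tph1-led at 182 CPM, of which the Sst-led and Neurog3-led had overlapping intervals. In the NFKO-labelled library the Tph1-led and Tac1-led clusters, at 310 and 307 CPM, overlapped in the same way.

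Sct had a different order. The Pyy-led cluster, which also had Ppy and Sct among its leading genes, stood apart with 113259 CPM in WT and 129786 CPM in the NFKO-labelled library, and its median cell held 100000 and 123580 CPM. In WT 4 clusters then lay close together: the Nts-led at 22877 CPM (22232 to 23535), the Tph1-led at 22508 CPM (21995 to 23031), the Pzp-led at 19048 CPM and the Gip-led at 16393 CPM. The Nts-led and Tph1-led clusters overlapped in their intervals. In the NFKO-labelled library the same 4 spread out, with the Nts-led at 67198 CPM, the Pzp-led at 48557 CPM, the Gip-led at 34406 CPM and the Tph1-led at 26872 CPM. The Gcg-led cluster, rich in Cck, held less Sct, 8210 and 7595 CPM, though 87.9% and 92.4% of its cells carried it. Lower still were the Tac1-led cluster, with 3184 and 2757 CPM, and the Sst-led cluster, with 2188 and 7360 CPM. The Tph1-led cluster, with the genes of enterochromaffin cells that make serotonin, was the converse: at least 96.9% of its cells carried Sct in each library, and Cck stood at 182 and 310 CPM, against 19.9 to 83.1 CPM and 76.2 to 288 CPM over the named classes that are not endocrine. The Neurog3-led cluster had the least Sct, 705 CPM in WT and 1844 CPM in the other library. It was not made up of progenitors alone by its transcripts. Its level of Ghrl, the ghrelin gene, was the highest of the endocrine clusters, 24701 and 45127 CPM, against 551 and 885 CPM of Neurog3.

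**Figure D1:**
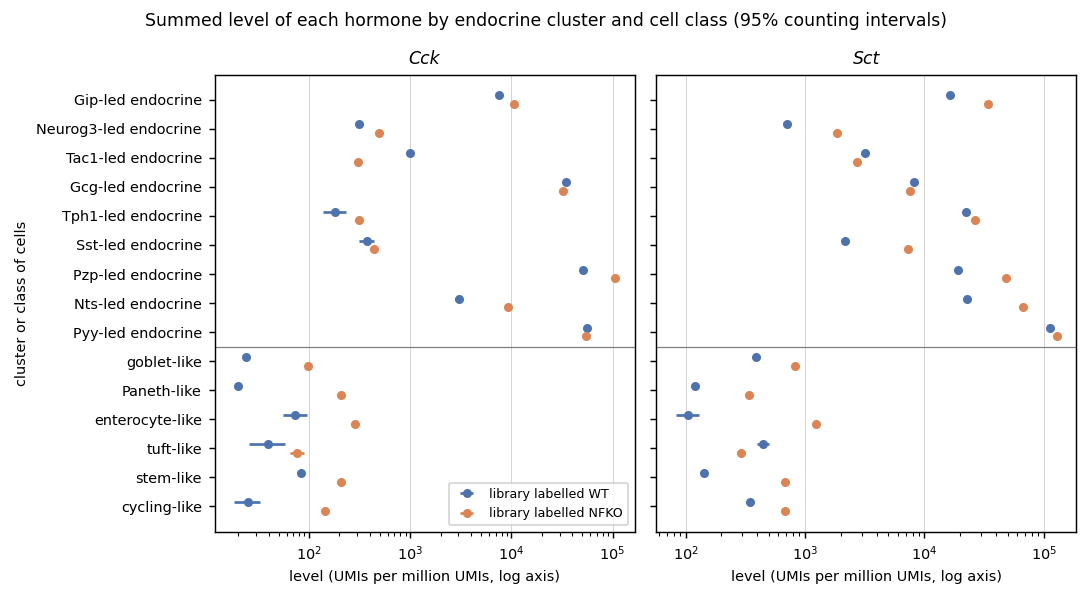
Summed levels of Cck (left) and Sct (right) on a log axis in UMIs per 1000000 UMIs, for each endocrine cluster (above the line) and each other cell class (below), with a point per library and bars for 95% counting intervals. Cck spanned from 182 to 56268 CPM over the endocrine clusters of WT and Sct from 705 to 113259 CPM, and the Tph1-led cluster was low in Cck and high in Sct.

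For shares of cells, each cell was thinned to 2000 UMIs, and a carrier was a cell with at least 4 UMIs of the gene, the same as 2000 CPM. This left 1029 cells from WT and 1902 from the NFKO-labelled library. Cck carriers made up 38.7% (398 cells, 35.7 to 41.7) of the WT cells and 35.4% (673 cells) of the others. Sct carriers made up 62.5% (643 cells, 59.4 to 65.5) and 70.8% (1347 cells). For comparison, goblet-like cells carried Cck in 0 of 853 WT cells, which allows a share of up to 0.352% (3 counts of the total). In the NFKO-labelled library 0.475% of the goblet-like cells carried it. Sct was carried by 4.10% and 13.5% of the goblet-like cells, so that this class was not free of Sct counts.

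Most Cck carriers were also Sct carriers, though not in every cluster. In WT 349 of 398 Cck carriers carried Sct, 87.7% (84.1 to 90.8), against 46.6% (42.6 to 50.6) of the cells without Cck. In the NFKO-labelled library it was 620 of 673, 92.1% (89.8 to 94.0), against 59.2% (56.3 to 61.9). The intervals of carriers and non-carriers were apart in both libraries. The converse did not hold: 54.3% of Sct carriers carried Cck in WT and 46.0% in the other library, against 12.7% and 9.55% of the cells without Sct. Cells with both made up 33.9% of the WT cells and 32.6% of the others, cells with Sct alone 28.6% and 38.2%, cells with neither 32.8% and 26.4%, and cells with Cck alone 4.76% and 2.79%. Cells with Cck but without Sct were thus the rarest kind in each library.

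The amounts of the 2 transcripts were less closely tied than their presence. Over all enteroendocrine-like cells the Pearson correlation of the log levels was 0.51 in WT and 0.49 in the NFKO-labelled library (1029 and 1902 cells). Within the cells that carried both it was 0.18 and 0.15, a weak relation among cells that share a library and a denominator. Cck exceeded Sct in 58.5% of the double carriers in WT (204 of 349) and in 45.5% in the other library (282 of 620). Double carriers were unevenly spread over the clusters. Their share of the cells in WT was 97.0% in the Pyy-led cluster, 90.2% in the Pzp-led, 82.8% in the Gcg-led, 36.7% in the Gip-led and 25.5% in the Nts-led, and from 2.67% to 7.41% in the Neurog3-led, Tph1-led, Tac1-led and Sst-led clusters.

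**Figure D2:**
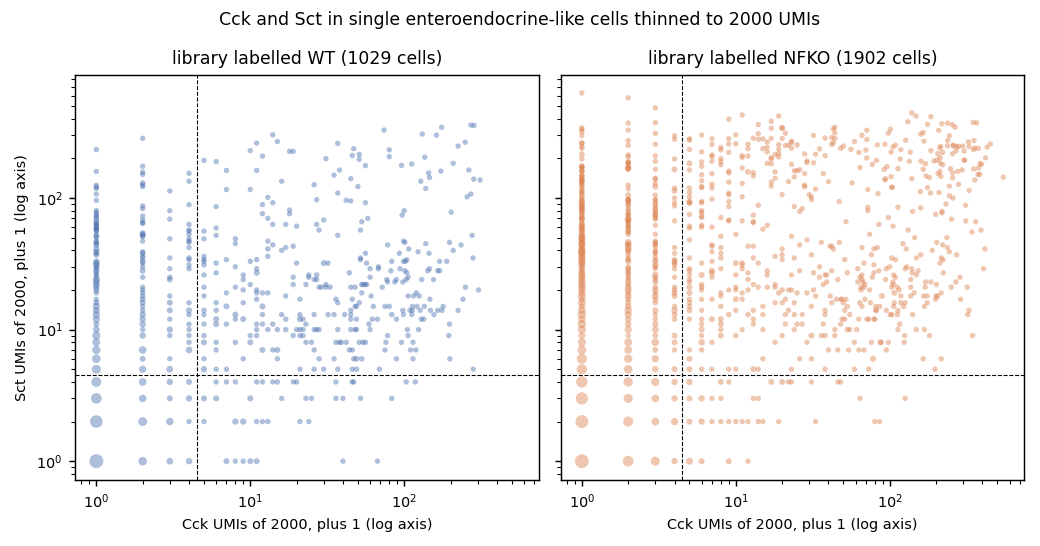
Each point is a pair of UMI counts of Cck (x) and Sct (y) per 2000 UMIs, plus 1, on log axes, in WT (1029 cells, left) and in the NFKO-labelled library (1902 cells, right), with larger points for more cells and dashed lines at the limit for carriers. The lower right field, Cck without Sct, held 49 WT cells and 53 of the others, and the upper left, Sct without Cck, 294 and 727.

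Other hormones split the carriers further. A Cck carrier held a median of 3 other hormones of the panel and a Sct carrier a median of 2. Cck carriers with no other hormone were 1.01% of them in WT (4 cells) and 3.86% in the NFKO-labelled library (26 cells), and for Sct it was 3.58% and 2.75%. Cck was the most abundant hormone in 8.45% of the enteroendocrine-like WT cells and 9.99% of the others, and Sct in 15.9% and 22.9%. Behind Cck as top hormone, Sct came second in 41 of 87 WT cells and in 98 of 190 cells of the other library. Behind Sct as top hormone, Cck came second most often in WT (37 of 164 cells) and Tph1 in the NFKO-labelled library (197 of 436 cells). In the latter, 55.7% of the cells topped by Sct lay in the Tph1-led cluster.

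Cck went with Gcg, the gene of the glucagon-like peptides of L cells. Of the Gcg carriers, 95.3% carried Cck in WT (91.8 to 97.7) and 95.7% in the NFKO-labelled library, against 21.8% and 26.0% of the cells without Gcg. Conversely, 56.5% of Cck carriers in WT and 36.6% in the NFKO-labelled library carried Gcg. The correlation of the log levels of Cck and Gcg was 0.72 in WT and 0.60 in the other library. Carriers of Pyy, another hormone gene of L cells, carried Cck in 82.9% and 75.3%. By contrast, Cck was scarce beside Sst, the gene of the D cell hormone somatostatin (2.50% and 5.56% of Sst carriers), and beside Tac1, which encodes substance P (15.7% and 5.36%). Gip, the gene of the K cell hormone, showed no such tie in WT, with Cck in 39.1% of Gip carriers and 38.5% of the cells without, while in the NFKO-labelled library it was 52.1% against 29.6%. Sct was present in most carriers of Gip (87.5% and 91.8%), Gcg (90.7% and 96.5%), Pyy (92.1% and 97.1%) and Nts, which encodes neurotensin (93.9% and 97.0%), and less often in Tac1 carriers (40.9% and 55.0%). Gast, the gene of gastrin, reached 4 of 2000 UMIs in 0 WT cells and 1 cell of the other library, and Vip had no UMI in the enteroendocrine-like cells of either library.

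When each cell was grouped by its leading other hormone, Cck carriers ranged from 0 of 26 cells led by Tph1 (which allows a share of up to 11.5%) to 140 of 145 cells led by Gcg in WT. Cells with none of the 8 other hormones were split by Neurog3. Where this progenitor transcript was seen, 3.17% of the 63 WT cells carried Cck and as many carried Sct, and in the NFKO-labelled library 6.99% and 4.90% of 143 cells. Where it was not seen, 32.7% of 98 WT cells carried Cck and 52.0% Sct, and in the other library 36.9% and 47.5% of 141 cells. Both hormones were therefore rare in the hormone-free cells that held the progenitor transcript. Cells led by Ghrl, the gene of ghrelin, lay in between, with Cck in 27.3% and 31.1% and Sct in 32.6% and 47.5%.

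**Figure D3:**
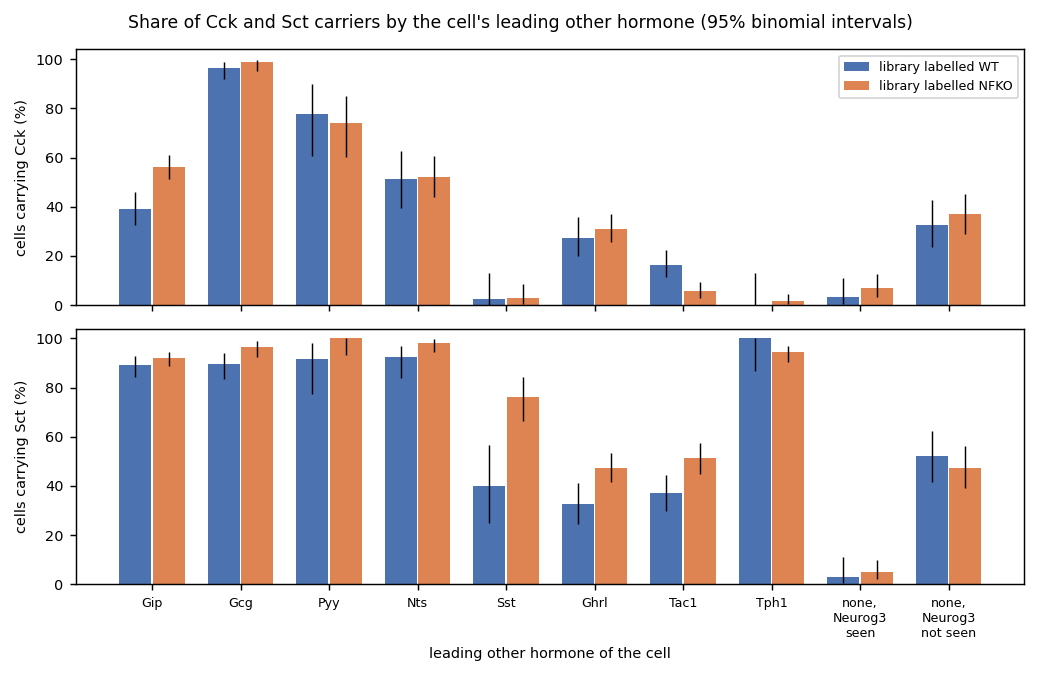
Share of cells (%) that carried Cck (top) or Sct (bottom), by the hormone with most UMIs among 8 others in the same cell, with a bar per library and 95% binomial intervals. Cck carriers were at 96.6% and 98.7% beside Gcg and at or below 3.09% beside Sst and Tph1, whereas Sct carriers were at 100% and 94.5% beside Tph1.

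Genes that varied most like Cck over the WT cells were ranked among 3095 genes. After Gcg with r = 0.72 came Etv1, a transcription factor gene, with 0.70 in WT and 0.66 in the NFKO-labelled library, and Ffar1, a receptor for long-chain fatty acids, with 0.67 in both. Fars2, Scg2, Gnai1, Cpe and Parm1 followed with 0.52 to 0.66 in WT. The lowest were Sox4 with −0.42, Neurog3 with −0.37 and Tmsb4x with −0.31. For Sct the first were Scg2, a granin of secretory granules, with 0.58 and 0.59, Cpe, a carboxypeptidase that trims prohormones, with 0.55 and 0.58, and Myl7 with 0.53 and 0.59. Id3 with 0.53 and 0.63 and Id2 with 0.53 and 0.59 came next, then Ffar1, Adgrg4 and Cck itself. The lowest were Hnrnpa1 with −0.58 and −0.67, Neurog3 with −0.54 and −0.59, and Ptma with −0.50 and −0.58. The median over all 3095 genes in WT was 0.04 for Cck and −0.04 for Sct. Id1, Id2 and Id3, common targets of BMP signalling, correlated with Sct at 0.51 to 0.53 in WT and with Cck at 0.09 to 0.20. The cells share libraries, depth and composition, so these correlations are descriptions.

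The summed level of both genes was higher in the NFKO-labelled library. The ratio to WT was 1.29 (1.28 to 1.30) for Cck and 2.13 (2.12 to 2.14) for Sct. The Pzp-led cluster weighed heavily in the Cck sums. It held 35240 of the 161607 Cck UMIs in WT (51 cells). In the NFKO-labelled library it held 250413 of 527729 (115 cells). That the Cck ratio lay above 1 therefore rested largely on this cluster. With a limit of 1.5-fold, 1 of the 2 genes, Sct, was higher and none lower, where 3.07% of 3588 genes tested were higher by as much and 3.21% lower. Of these genes, 26 had a higher ratio than Sct and 309 a higher ratio than Cck, and the median log2 ratio over all was 0.01. In male-typed cells alone (828 WT cells and 130 of the other library) the Cck ratio turned to 0.901, with 14161 and 12758 CPM, and the Sct ratio was 2.54, with 13143 and 33320 CPM. The direction for Cck therefore held over all cells and not within male-typed cells, and female-typed cells cannot be compared, since WT had 2.

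Sct carriers were more frequent in the NFKO-labelled library, and Cck carriers were not. The share of Sct carriers had a ratio of 1.13 (1.07 to 1.20) to WT and that of Cck carriers 0.915 (0.829 to 1.01), an interval that contains 1. In goblet-like cells, the background for these shares, Sct carriers were also more frequent in the NFKO-labelled library, by a similar number of percentage points (4.10% and 13.5%, against 62.5% and 70.8%), and their part in the difference was not tested. Double carriers had a ratio of 0.961 (0.864 to 1.07) and cells with neither 0.806 (0.718 to 0.904). Among carriers the median level of Sct was 9304 CPM in WT and 14534 CPM in the other library, and that of Cck 14606 and 15392 CPM. The make-up of the cells differed between the libraries, with 26 WT cells led by Tph1 against 217 and 145 led by Gcg against 150. Given the WT make-up of leading hormones, the NFKO-labelled library would have 41.9% Cck carriers and 70.3% Sct carriers. Within the 10 groups by leading hormone the share was higher in that library in 8 for each gene, mostly with overlapping intervals. For Cck the intervals were apart upward only in cells led by Gip, and they were apart downward in cells led by Tac1. For Sct they were apart upward in cells led by Sst, Ghrl and Tac1.

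By cluster the ratios were uneven. For Sct the ratio lay above 1 in 7 of 9 clusters, with 3.36 (3.13 to 3.62) in the Sst-led, 2.94 in the Nts-led, 2.62 in the Neurog3-led, 2.55 in the Pzp-led and 2.10 in the Gip-led, and below 1 in the Tac1-led (0.866) and Gcg-led (0.925) clusters. When cells were grouped by leading hormone instead, the Sct ratio was above 1 in both, 1.07 in cells led by Tac1 and 1.87 in cells led by Gcg. For Cck 5 clusters lay above 1 beyond the counting interval, led by the Nts-led with 3.06 (2.83 to 3.33) and the Pzp-led with 2.10 (2.08 to 2.13). The Tac1-led cluster was at 0.307 (0.285 to 0.332), the Gcg-led at 0.941, the Pyy-led at 0.977, and the Sst-led at 1.16 with an interval from 0.967 to 1.40. Here too the grouping mattered: by leading hormone the Cck ratio was 1.24 in cells led by Gcg and 1.42 in cells led by Pyy, and 0.164 in cells led by Tac1. In the latter, Cck carriers were 30 of 184 in WT and 14 of 248 in the NFKO-labelled library. Some ratios rest on few cells: in cells led by Tph1 Cck stood at 88.3 and 7043 CPM, and there the NFKO-labelled library had 4 carriers among 217 cells.

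**Figure D4:**
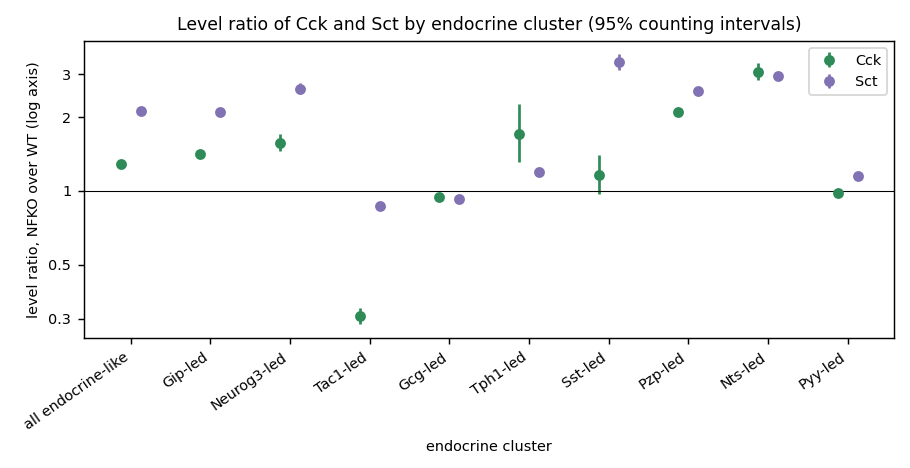
Ratio of the summed level in the NFKO-labelled library to that in WT, on a log axis with a line at 1, for Cck and Sct in all enteroendocrine-like cells and in each endocrine cluster, with 95% counting intervals. Sct was below 1 in the Tac1-led and Gcg-led clusters, and Cck had its lowest ratio, 0.307, in the Tac1-led cluster.

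The genes around the 2 hormones were counted by lists. Of the 15 hormone genes 11 passed the minimum (50 CPM in 1 library and 100 UMIs), of which 6 were at least 1.5-fold higher and 2 lower, with a median log2 ratio of 0.64. The share over all 3588 genes, against which each of these lists is set, was 3.07% higher and 3.21% lower, and their median log2 ratio 0.01. The higher hormone genes were Iapp with a ratio of 5.91, Nts with 3.04, Gip with 2.56, Sst with 2.50, Sct with 2.13 and Ghrl with 1.56. Sct was thus not alone among the hormones, and 4 of them had higher ratios. The lower ones were Gcg (14545 and 6318 CPM) and Tac1 (1978 and 1115 CPM). Of 9 genes for prohormone processing 7 passed, and 3 were higher: Scg5, the chaperone of prohormone convertase Pcsk2, with a ratio of 1.98, Pcsk1n with 1.69, and Tpst1, a tyrosine sulfotransferase, with 1.54. Pcsk1, the convertase of most gut hormones, was at 527 and 481 CPM (0.912), Pam, which amidates peptides, at 407 and 424 CPM (1.04), and Cpe at 1307 and 1292 CPM (0.989). Of 5 granin genes 4 passed and none was 1.5-fold apart, with Chga at 1.14 and Chgb at 0.757.

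Of 15 nutrient-sensing genes 4 passed and none was 1.5-fold apart, among them Ffar1 with 222 and 180 CPM. The receptors of both hormones were almost absent here: Cckar had 0 and 7 UMIs, Cckbr 0 and 0, and Sctr 0 and 2 UMIs in all enteroendocrine-like cells. Dbi, which encodes a peptide that releases cholecystokinin, was at 121 and 149 CPM. Of 20 transcription factor genes 18 passed, with Hhex (1.99) and Neurog3 (1.61) higher and Etv1 (0.655) and Rfx6 (0.666) lower. Etv1, second in likeness to Cck, was thus lower where the Cck sum was higher. Of 5 BMP-response genes 3 passed, with Id3 at 1.93, Id1 at 1.78 and Id2 at 1.31, a median log2 ratio of 0.83. These were also genes near the top in likeness to Sct, and a part of BMP signalling in the Sct ratio was not tested. Of 6 proximal gut genes 3 passed and Fabp1 was higher (2.62), and of 3 distal genes Osr2 passed and was lower (0.546). Pooled intestines do not fix how much of each segment a library holds, and the part of segment and stress in the hormone ratios was not tested.

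Outside the enteroendocrine-like cells Cck was low and Sct was not evenly so. Goblet-like cells held Cck at 24.0 CPM in WT and 97.6 CPM in the NFKO-labelled library, and Sct at 390 and 823 CPM. After thinning, 46.7% of goblet-like WT cells and 70.0% of those in the NFKO-labelled library had at least 1 Sct UMI, against 17.5% and 41.0% of stem-like cells and 85.0% and 89.9% of enteroendocrine-like cells, at median depths of 23994, 47608 and 11849 UMIs for WT and of 15758, 52422 and 15382 for the other library. The share of Sct in the UMIs of all 15 hormones was 15.4% in the WT enteroendocrine-like cells, and 64.1% (63.2 to 65.0) in goblet-like, 74.4% (71.4 to 77.3) in cycling-like and 19.4% (18.7 to 20.2) in stem-like cells. For Cck the shares were 16.3%, 3.94%, 5.30% and 11.4%. In the WT goblet-like and cycling-like cells the hormones were therefore not in the proportions of the endocrine cells. Nor were they in WT tuft-like and Paneth-like cells, with Sct at 59.1% and 42.6%. Enterocyte-like WT cells came closer, with Cck at 13.1% and Sct at 18.5%. In the NFKO-labelled library Paneth-like cells had 12.1% and 19.7%, against 12.4% and 19.4% in its enteroendocrine-like cells. Without the 3 Paneth-like cells richest in hormone UMIs, these shares were 16.2% and 27.8%. Goblet-like cells of that library had Sct at 46.2%, and its tuft-like, cycling-like and enterocyte-like cells at 33.5% to 34.9%. Of the 35 Sct carriers among WT goblet-like cells, 2 held at least 3 of the 10 endocrine marker genes, and of the 171 in the other library 37 did. Over all goblet-like cells 2.34% and 23.7% held as many. Several non-endocrine sums rested on single cells, with 75.0% of the Sct UMIs of enterocyte-like cells and 57.1% of the Cck UMIs of Paneth-like cells in the NFKO-labelled library in 3 cells each. Where the hormone counts of the non-endocrine classes came from was not tested.

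**Figure D5:**
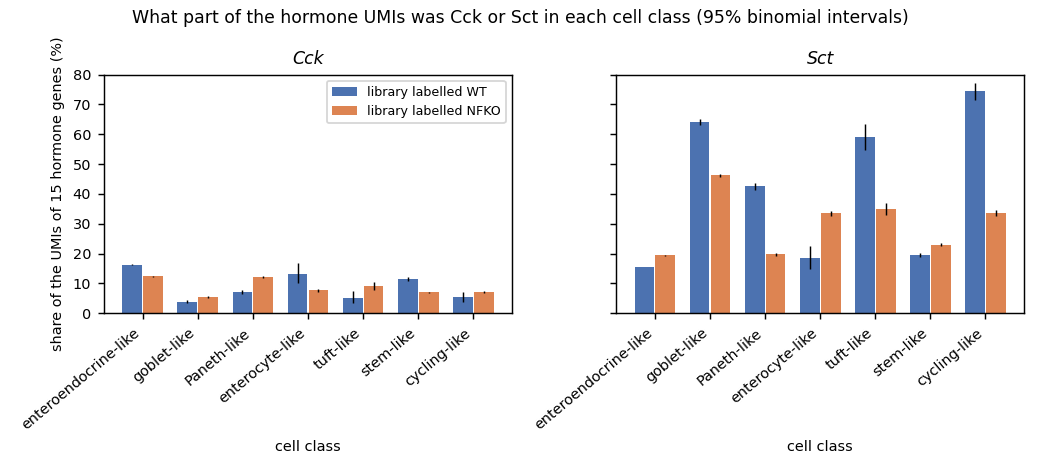
Share (%) of the UMIs of the 15 hormone genes that were Cck (left) or Sct (right) in each cell class, with a bar per library and 95% binomial intervals. Sct took 64.1% in goblet-like and 15.4% in enteroendocrine-like cells of WT, while Cck took 3.94% and 16.3%.

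A cluster of 8 cells from WT and 97 from the NFKO-labelled library stayed unnamed, as its median of 1445 UMIs was low. It met the endocrine marker rule and had Gip among its leading genes. Cck stood at 5507 and 19777 CPM in it and Sct at 4211 and 27113 CPM. These cells are counted in none of the enteroendocrine-like values.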

How the data were processed

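The authors made 3′ libraries on the 10x Genomics platform and, per the submitters' processing notes, used Cell Ranger 5.0.1 and mm10. What they deposited are counts without normalization, given as unique molecular identifiers (UMIs) per gene and barcode, each marking 1 captured transcript. The study's clustering in Seurat was not used here. The 2 matrices held 5051 barcodes (WT) and 7540 barcodes (NFKO), with 90002878 and 124300388 UMIs.

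A barcode needed at least 500 genes and 1000 UMIs, with no more than 25% of them mitochondrial, and 3129 and 5632 passed. Doublets were scored with Scrublet in scanpy 1.11.5, and the highest scores were removed at 0.8% per 1000 barcodes (126 and 340 cells). Leiden clustering (2000 variable genes, 30 principal components, 20 neighbours, resolution 0.8) left out 23 genes, among them the 15 hormones. A cluster took a class name with at least 3 markers 2-fold higher than in the rest and seen in 10% of its cells. Cells with UMIs of Y-linked genes and none of Xist were typed as male, and the converse as female.

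Levels are UMIs of a gene per 1000000 UMIs (CPM). Intervals are exact Poisson, Clopper-Pearson or conditional binomial at 95%, and log-normal for ratios of shares; ratios are always NFKO over WT. For shares of cells each cell was thinned to 2000 UMIs. Cell-to-cell correlations used log counts per 10000. Likeness was ranked over genes with at least 50 CPM in both libraries, and the 8 highest and 3 lowest in WT were named; of the lists, all hormone, processing and granin genes could be named and of the others those with the 3 highest and 3 lowest ratios. The receptor genes were named after their values were seen. The members and lists were chosen with earlier results of these data known. The interval and thinning code was tested on simulated counts. Alternative filters, doublet rates, seeds, scalings and carrier limits are given in the closing section.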

Additional observations from a re-analysis of the deposited data

Results flagged for a closer look

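Clusters of enteroendocrine-like cells did not all differ in the same direction between the libraries. The Cck level ratio of the library labelled NFKO to WT was 0.307 in the Tac1-led, 0.941 in the Gcg-led and 0.977 in the Pyy-led cluster, with intervals wholly below 1, while it was 3.06 in the Nts-led cluster. The Sct level ratio was 0.866 in the Tac1-led and 0.925 in the Gcg-led cluster and 3.36 in the Sst-led cluster. Most of the directions below 1 turned with the grouping of cells. By leading other hormone, the Cck ratio was 1.24 in cells led by Gcg and 1.42 in cells led by Pyy, and the Sct ratio 1.07 in cells led by Tac1 and 1.87 in cells led by Gcg. The Cck ratio in cells led by Tac1 stayed below 1, at 0.164. With 1 library per group the difference between clusters was not tested.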

How the results depend on the processing

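Of 76 recomputed values 47 stayed within the counting interval of the value reported, 28 moved outside it and 1 changed direction. A change of direction was counted only where the interval of the value reported excluded 1. The double carrier ratio (0.961), whose interval contains 1, lay above 1 in 3 of 11 alternatives, with 1.05 as the highest. With depths of this size the intervals of the level ratios are so narrow that small shifts leave them. The Cck level ratio (1.29) was 1.32 over every deposited barcode, 1.23 under a stricter filter, 1.30 with no doublets removed, 1.25 with double the number removed, 1.33 with the class taken from each cell's own marker total, 1.38 per non-hormone UMI, 1.34 with median-of-ratios size factors and 1.25 with each cell weighted equally. It reversed to 0.901 in male-typed cells, and the cause was not tested. In the same order the Sct level ratio (2.13) was 2.20, 2.16, 2.16, 2.21, 2.23, 2.28, 2.21 and 1.99, and 2.54 in male-typed cells, so that it stayed above 1 in all 10 alternatives run. The Cck carrier ratio (0.915) moved to 0.827 with classes by marker total and 0.780 in male-typed cells, and the double carrier ratio (0.961) to 0.824 in male-typed cells. The Sct carrier ratio (1.13) was 1.07 with classes by marker total and 1.28 with a limit of 10 UMIs. The share of WT Cck carriers with Sct (87.7%) was 92.2% with a limit of 2 UMIs, 70.4% with 10 and 79.1% when cells were thinned by non-hormone UMIs. In the library labelled NFKO (92.1%) it was 85.7% with 10 UMIs and 94.3% in unthinned cells. Genes of the lists at least 1.5-fold apart, stress and control genes left out, numbered 19 of 52 and, with no minimum beyond 1 UMI in each library, 29 of 78. No paired analysis was possible because each group has 1 library.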
